A study of Mus musculus with 24 samples.

Results

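Keratins 7, 8, 18, 19 and 20 are the intermediate filament proteins of simple epithelia, the single-layered sheets that line the gut, ducts and glands. The members described here are the 5 genes Krt7, Krt8, Krt18, Krt19 and Krt20, of 21441 genes in each deposited table. Krt7 was chosen by its FPKM values, because its difference after calcitriol had one of the smallest p-values among the duodenal genes that did not pass the adjusted threshold, and the other 4 because they are the simple-epithelium keratins beside it. The comparison of treated with deficient mice is therefore a description for these genes, and no p-value is given for it. The comparison of keratin makeup between regions was not used in the choice and is tested.

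The study sequenced poly(A) RNA of 3 parts of the gut, duodenum, ileum and colon, to find vitamin D targets along the intestine. All mice were C57BL6J and wild type. Treated mice (3xD) received 3 injections of 1,25D3 (calcitriol, the hormone form of vitamin D), given 48, 24 and 6 h before collection, with a dose of 1 ng for each g of body weight. They were set against vitamin D-deficient mice (minusD), whose labels give no treatment, although 3 of the 4 deficient columns are named Vehicle. Ages ran from 10 to 14 in a unit the labels do not state, and 2 of 4 treated and 1 of 4 deficient mice per region were female. The values come as FPKM, fragments scaled by transcript length and by library size, which are per length and so can be set beside each other between genes. The 23 libraries comprise 4 treated with 4 deficient for duodenum, the same numbers for colon, and 4 treated with 3 deficient for ileum, whose 8-library table repeats the duodenal one. The sources used here do not say whether libraries of different regions came from the same mice, and p-values measure the spread between these samples.

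A filament of simple epithelium is built from pairs of a type II and a type I keratin. Krt7 and Krt8 encode type II proteins, and Krt18, Krt19 and Krt20 encode type I proteins. Krt8 with Krt18 is the pair found in nearly all simple epithelia, where it carries mechanical load and buffers stress. Krt19 joins it in the intestine and in ducts, Krt20 marks differentiated cells of the gut surface and villus, and Krt7 is best known from ducts, bladder, lung and other glandular linings. In mice the loss of Krt8 is known to cause a colitis. The vitamin D receptor binds DNA with a retinoid X receptor, classically at a pair of hexamers in direct repeat with a spacer of 3 bases.

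On the NCBIM37 assembly (mm9), Krt7 lies on the plus strand at chr15:101241474-101260744, Krt8 on the minus strand at chr15:101827142-101834773 and Krt18 on the plus strand at chr15:101858647-101862457. Krt8 and Krt18 are separated by 23873 bp, although they encode keratins of different types. Krt19 at chr11:100002124-100009979 and Krt20 at chr11:99289717-99299464 are on the minus strand. Of 23 keratin genes in the table on chromosome 15 only the 3 members reached a mean of 5 FPKM in any region, and none of the 19 keratins that lie between Krt7 and Krt8 averaged more than 1.19 FPKM. Of 27 on chromosome 11, Krt19, Krt20 and Krt23 reached it.

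The promoters of Krt7 and Krt8 are shown because these type II genes of one cluster stood apart in their values after calcitriol. Both stretches come from RefSeq on GRCm38.p6 and run from 250 bases before the annotated start to 25 after it, and capitals mark the hexamer AGGTCA, a receptor half-site. The Krt7 stretch is chr15:101412153-101412427 on the plus strand and the Krt8 stretch chr15:102004318-102004592 on the minus strand.
Krt7: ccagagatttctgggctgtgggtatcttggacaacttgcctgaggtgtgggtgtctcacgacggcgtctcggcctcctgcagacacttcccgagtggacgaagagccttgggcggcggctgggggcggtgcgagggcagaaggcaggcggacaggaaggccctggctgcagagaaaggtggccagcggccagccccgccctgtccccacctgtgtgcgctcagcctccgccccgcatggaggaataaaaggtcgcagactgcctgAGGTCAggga
Krt8: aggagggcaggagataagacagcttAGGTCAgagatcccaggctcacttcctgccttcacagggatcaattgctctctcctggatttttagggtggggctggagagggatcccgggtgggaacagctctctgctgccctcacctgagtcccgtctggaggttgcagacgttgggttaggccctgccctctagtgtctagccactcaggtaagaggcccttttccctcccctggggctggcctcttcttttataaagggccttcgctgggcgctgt
RefSeq promoters of 300 bases were found for 4 of the 5 members, all but Krt19. The direct repeat was searched on both strands as any 2 half-sites 3 bases apart, a half-site being AGGTCA or else AGTTCA or else GGGTCA or else GGTTCA, and 0 of the 4 held it, against 0.0396% of 32851 promoters. A single AGGTCA stood in each of the 4, first base at +16 in Krt7, -225 in Krt8, -108 in Krt18 and -23 in Krt20 counted from the start. It was present in 16.3% of all promoters. The AP-1 motif TGANTCA was in none of the 4 and in 7.81% of all promoters, and TATAAA was in Krt8 and Krt20 and in 13.6% of all. These matches describe letters and are not binding sites.

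The treatment was visible in the vitamin D target Cyp24a1, which inactivates calcitriol. It averaged 346 ± 236 FPKM in treated and 0.114 ± 0.203 in deficient duodenum (SD, n = 4 each). Cyp24a1 was 1 of 3 genes past an adjusted p of 0.05 there by limma, which is 0.0256% of 11734 tested, and 1103 or 9.4% had an unadjusted p below it. The ileum had 0.0% called and 709 genes (5.84%) at the unadjusted level, and the colon 0.0% and 746 genes (5.85%). Ileal Cyp24a1 averaged 149 ± 263 FPKM in treated and 0.0650 ± 0.0761 in deficient libraries, without overlap but with a treated SD above the mean. S100g, another vitamin D response gene, averaged 848 ± 711 in treated and 462 ± 760 in deficient ileum, with overlap. Duodenal S100g averaged 9133 ± 4023 in treated and 2144 ± 1612 in deficient libraries, with overlap. In the colon S100g averaged 4034 ± 1531 in treated and 186 ± 157 in deficient libraries, without overlap. Colonic Cyp24a1 was not among the 3 of 6 vitamin D response genes with the lowest p there. It passed the adjusted threshold in the colon only when 3xD_1 was left out. Library names follow 2 schemes, serial numbers (3xD_1, Vehicle_1, Vehicle_2, Vehicle_3) and 4-digit numbers (3xD5711, 3xD5720, 3xD5734, minusD5718, given here without the letter of the region). Recovered whole reads ran from 18855265 to 31094718 in the serial libraries and from 12241511 to 15270315 in the 4-digit ones. The schemes nearly coincide with treatment, so log2 differences within each scheme are given for the members. Of 11 stomach and Brunner gland markers in the table, 7 passed the filter in the duodenum, with 0 called and summed levels of 139 to 9151 FPKM in treated and 40.7 to 12369 in deficient libraries, and of 6252 to 12369 in 4-digit against 40.7 to 216 in serial ones. The 10 exocrine pancreas markers summed to 849 to 33732 FPKM in treated and 7535 to 53981 in deficient duodenum. The 10 general epithelial markers, Epcam and Vil1 among them, were present throughout, at sums of 4786 to 5869 FPKM in treated and 4415 to 6083 in deficient duodenum. In treated ileum they summed to 6504 to 7604 FPKM and in deficient ileum to 6869 to 8529.6, and in treated colon to 6102 to 8547 and in deficient colon to 6675 to 7728.

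Krt7 averaged 2.14-fold higher in treated than in deficient duodenum and 1.94-fold higher in the colon, and its groups overlapped in the ileum. In treated duodenum Krt7 stood at 48.2 FPKM in 3xD_1, 56.6 in 3xD5711, 55.7 in 3xD5720 and 74.0 in 3xD5734. In deficient duodenum it stood at 31.6 FPKM in minusD5718, 23.9 in Vehicle_1, 29.8 in Vehicle_2 and 24.2 in Vehicle_3. Every treated library lay above every deficient one, and the lowest treated and highest deficient library were 48.2 and 31.6 FPKM. Treated duodenum averaged 58.6 ± 10.9 and deficient duodenum 27.3 ± 3.93 FPKM (SD, n = 4 each). On the log2(FPKM + 1) scale the difference was 1.07 ± 0.15 (SE). Groups that do not overlap with treated higher were found for 1.99% of all genes tested in the duodenum, 3.35% in the ileum and 2.22% in the colon, and since the contrast chose Krt7 nothing is read from this. Between 716 and 1814 reads lay behind each of these values, so counting error is well below the spread between libraries.

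The colon repeated this separation at a higher level. Treated colon had 284 FPKM of Krt7 in 3xD_1, 202 in 3xD5711, 189 in 3xD5720 and 188 in 3xD5734. Deficient colon had 93.2 FPKM in minusD5718, 109.6 in Vehicle_1, 124 in Vehicle_2 and 118 in Vehicle_3. The groups did not overlap, with means of 216 ± 46.0 FPKM in treated and 111 ± 13.3 in deficient colon (SD, n = 4 each), and a log2 difference of 0.94 ± 0.16 (SE). 3xD_1 stood well above the other treated libraries, and without it the log2 difference was 0.80.

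In the ileum 1 deficient library was the highest of all. Treated ileum had 127 FPKM of Krt7 in 3xD_1, 122 in 3xD5711, 92.8 in 3xD5720 and 99.0 in 3xD5734. Deficient ileum had 76.2 FPKM in Vehicle_1, 133 in Vehicle_2 and 71.4 in Vehicle_3. The other 2 deficient libraries lay below every treated one, and Vehicle_2 lay above all. Treated ileum averaged 110.0 ± 16.6 FPKM (SD, n = 4) and deficient ileum 93.5 ± 34.1 (SD, n = 3), and the log2 difference was 0.28 ± 0.24 (SE), or 0.56 without Vehicle_2 and 0.11 without Vehicle_3. Krt7's log2 difference was 0.79 ± 0.27 (SE) larger in the duodenum than in the ileum and 0.13 ± 0.26 larger than in the colon, and that of the ileum less that of the colon was -0.66 ± 0.27. These 3 values are descriptions, since the duodenal difference chose the gene. Xist, expressed from the inactive X, lay above the Y-linked Ddx3y in 2 of 4 treated and 0 of 3 deficient ileal libraries, so sex also differs between the ileal groups, and its part was not tested.

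**Figure D1:**
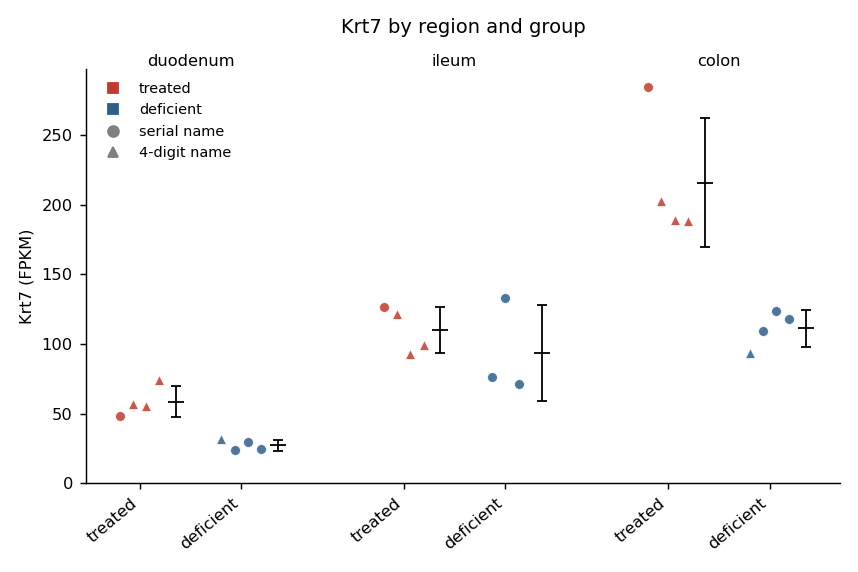
Krt7 in FPKM for each library, treated left of deficient in each region, with circles for serial and triangles for 4-digit library names and black bars for the mean and SD (n = 4, or 3 in deficient ileum). The treated points lie at 48.2 FPKM or more in the duodenum, above all deficient ones there, and at 188 or more in the colon, while Vehicle_2 at 133 is the highest of the ileum.

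Krt7 was higher in treated than in deficient libraries within each naming scheme that holds both. Among serial libraries the log2 difference was 0.88 in the duodenum, 0.49 in the ileum and 1.27 in the colon, each from 1 treated library. Among 4-digit libraries, with 1 deficient library, it was 0.94 in the duodenum and 1.04 in the colon, and the ileum has no deficient 4-digit library. Within each group, duodenal Krt7 also followed the scheme: the treated serial library had 48.2 FPKM, below 55.7 to 74.0 in the treated 4-digit ones, and the deficient 4-digit library had 31.6, above 23.9 to 29.8 in the deficient serial ones. In the colon the scheme ran the other way within each group. The treated serial library had 284 FPKM, above 188 to 202 in the treated 4-digit ones. The deficient 4-digit library had 93.2, below 109.6 to 124 in the deficient serial ones. With the scheme as a covariate the log2 difference was 0.91 in the duodenum, 0.49 in the ileum and 1.16 in the colon. The stomach markers moved with the scheme, and their part in the Krt7 values was not tested. Pancreas markers in the colon reached 737 FPKM of Cpa1 in 3xD5720, whose Krt7 was 189 FPKM. In bulk tissue, fewer cells of a type and less RNA per cell cannot be told apart.

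Set against the other type II keratin of the same library, Krt7 separated the groups in the duodenum and colon as well. Treated duodenum had 2.78 to 5.33 FPKM of Krt7 per 100 FPKM of Krt8, and deficient duodenum 1.19 to 2.67. Treated colon had 6.41 to 10.2 and deficient colon 2.88 to 3.77. In the ileum the ranges were 3.59 to 8.12 in treated and 2.15 to 4.34 in deficient libraries, which overlap. Per 100 FPKM of Epcam, an adhesion protein of epithelial cells, Krt7 stood at 5.06 to 7.93 in treated and 2.28 to 3.87 in deficient duodenum. Treated ileum had 7.79 to 10.1 on this scale and deficient ileum 4.66 to 9.02, and treated colon had 16.0 to 23.2 and deficient colon 7.80 to 11.5. Both scales share the Krt7 values above and are no separate evidence.

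Krt8, the type II partner expressed throughout simple epithelia, overlapped between the groups in all 3 regions. In the duodenum it stood at 1732, 1430.2, 1045 and 1706 FPKM in treated 3xD_1, 3xD5711, 3xD5720 and 3xD5734, and at 1184, 1297, 1500.2 and 2029 in deficient minusD5718, Vehicle_1, Vehicle_2 and Vehicle_3. Its log2 difference there was -0.02 ± 0.24 (SE). The ileum had 2966, 2196, 1143 and 2761 FPKM in treated libraries of the same order and 2448, 3063 and 3319 in deficient Vehicle_1 to Vehicle_3, a log2 difference of -0.46 ± 0.34. 3xD5720 was the lowest treated library in each region, and without it the ileal difference was -0.16. The treated colon ranged from 1861 FPKM in 3xD5720 to 4438 in 3xD_1, while the 4 deficient libraries lay between 3238 and 3465. The colonic difference was -0.30 ± 0.26 (SE), or -0.54 without 3xD_1 and -0.12 without 3xD5720. Among serial libraries the Krt8 difference was 0.13 in the duodenum, 0.02 in the ileum and 0.40 in the colon. Among 4-digit libraries it was 0.21 in the duodenum and -0.50 in the colon, so the colonic direction changed with the naming scheme.

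Krt18, the type I partner of Krt8, averaged higher in treated than in deficient duodenum and lower in treated than in deficient ileum. Treated duodenum held 125, 149, 156 and 141 FPKM in 3xD_1, 3xD5711, 3xD5720 and 3xD5734, and deficient duodenum 105 in minusD5718 and 104, 100.5 and 132 in Vehicle_1 to Vehicle_3. Only Vehicle_3 reached into the treated range, and the log2 difference was 0.37 ± 0.13 (SE). In the ileum the groups did not overlap and treated was lower, with 237, 241, 165 and 213 FPKM in treated libraries against 258, 300.2 and 251 in the deficient libraries. The log2 difference was -0.35 ± 0.17 (SE), but -0.18 among serial libraries, the only naming scheme with deficient ileal libraries. Groups that do not overlap with treated lower were found for 3.21% of all genes tested in the ileum, beside 2.38% in the duodenum and 2.32% in the colon, where no member did so. Colonic Krt18 was 648 FPKM in treated 3xD_1 and 279 to 361 in the other 3 treated libraries, against 347 to 408 in deficient ones, with a difference of 0.03 ± 0.24. Among serial libraries the Krt18 difference was 0.16 in the duodenum and 0.74 in the colon, and among 4-digit libraries 0.50 and -0.13. The Krt18 difference of the duodenum less that of the ileum was 0.72 ± 0.28 (SE), which is a description and takes no account of the naming scheme.

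Krt19, a short type I keratin without the usual tail domain, lay at nearly equal means in both groups. Treated duodenum averaged 664 ± 137 FPKM and deficient duodenum 671 ± 62.9 (SD, n = 4 each). Treated ileum averaged 1404 ± 525 (n = 4) and deficient ileum 1360.3 ± 145 (n = 3), and treated colon 2239 ± 626 and deficient colon 2278 ± 140.0 (n = 4 each). The log2 differences from duodenum to colon were -0.04 ± 0.18, -0.06 ± 0.36 and -0.06 ± 0.21 (SE). The wide treated spread came from 3xD5720, at 472, 631 and 1685 FPKM in the 3 regions, the lowest treated value in each, and in the colon from 3xD_1 at 3119. Without 3xD5720 the ileal difference was 0.29. Among serial libraries the Krt19 difference was -0.07 in the duodenum, 0.17 in the ileum and 0.48 in the colon. Among 4-digit libraries it was 0.11 in the duodenum and -0.30 in the colon.

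Krt20, the keratin of differentiated surface and villus cells, averaged a little lower in treated tissue in all regions, by less than 2 standard errors. It averaged 1048 ± 210.4 FPKM in treated and 1179 ± 139 in deficient duodenum (SD, n = 4 each). In treated ileum it averaged 1032 ± 121 (n = 4) and in deficient ileum 1199 ± 216 (n = 3), and in treated colon 531 ± 70.2 and in deficient colon 610.4 ± 142 (n = 4 each). The log2 differences were -0.19, -0.21 and -0.18, each ± 0.19 (SE). Their intervals ran from -0.61 to 0.24, from -0.64 to 0.22 and from -0.61 to 0.25, so a fall or a small rise could not be told apart at this spread. Among serial libraries the Krt20 difference was 0.05 in the duodenum, -0.04 in the ileum and 0.06 in the colon. Among 4-digit libraries it was -0.19 in the duodenum and -0.58 in the colon.

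**Figure D2:**
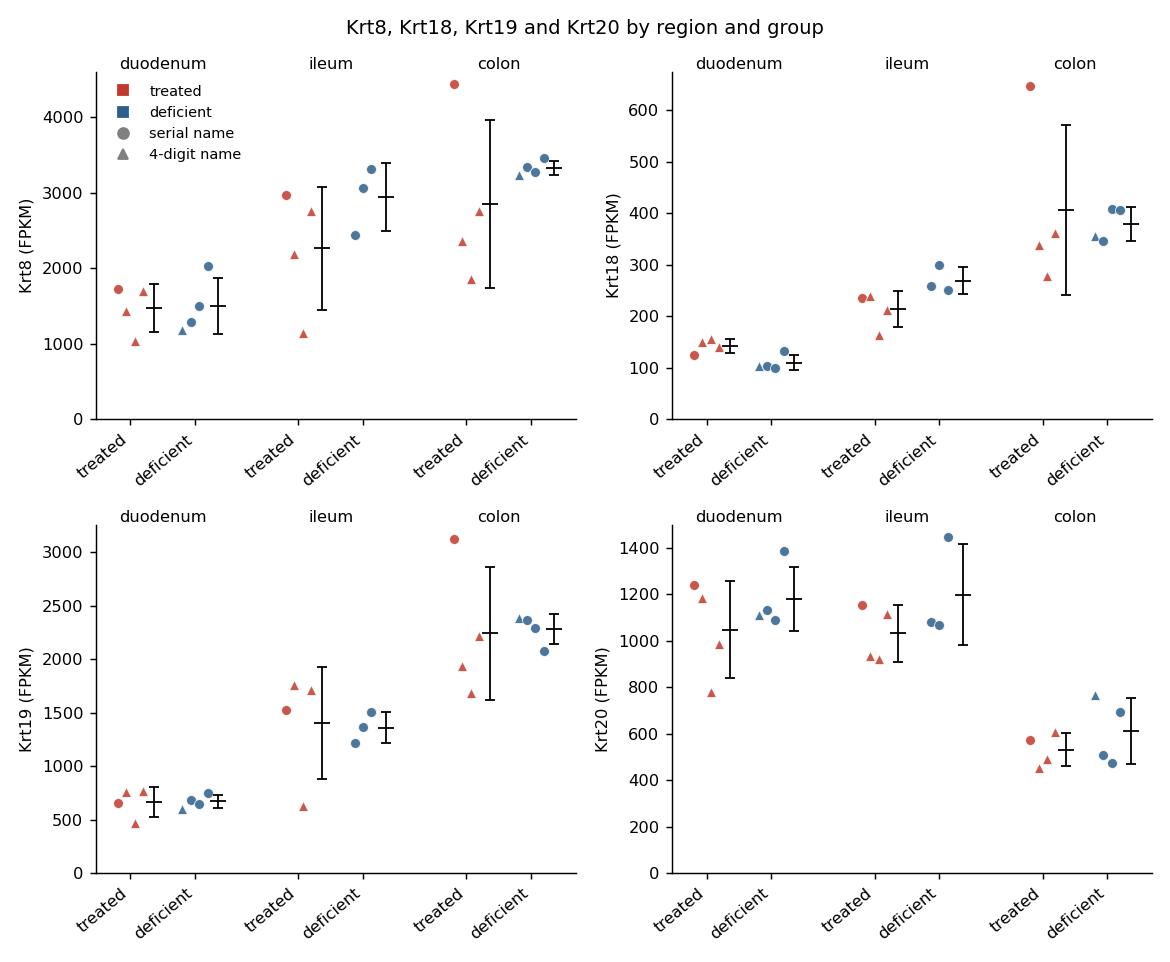
Krt8, Krt18, Krt19 and Krt20 in FPKM for each library, treated left of deficient in each region, with circles for serial and triangles for 4-digit names and black bars for mean and SD (n = 4, or 3 in deficient ileum). The groups overlap for each gene and region except Krt18 in the ileum, where treated libraries reach 241 FPKM and deficient ones start at 251, and 3xD_1 stands highest of the colon for Krt8, Krt18 and Krt19.

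Past the adjusted threshold stood 0 of 5 members in each region by limma. Because the choice of the members used this contrast, nothing is read from that count, nor from the 0.0256%, 0.0% and 0.0% of all genes called. Krt7 was the member with the largest log2 difference in each of the duodenum and colon, while Krt8 was that of the ileum. The response differences between regions rest on the same contrast and are likewise given without a test for the members. For Krt8 they were 0.43 ± 0.41 (SE) for duodenum less ileum, 0.28 ± 0.40 for duodenum less colon and -0.16 ± 0.41 for ileum less colon, and for Krt19 and Krt20 they lay between -0.03 and 0.03. Over all genes limma made 0 calls of a response difference in each pair, with 580 genes at an unadjusted p under 0.05 in the duodenum-ileum pair, 254 in the duodenum-colon pair and 445 in the ileum-colon pair.

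**Figure D3:**
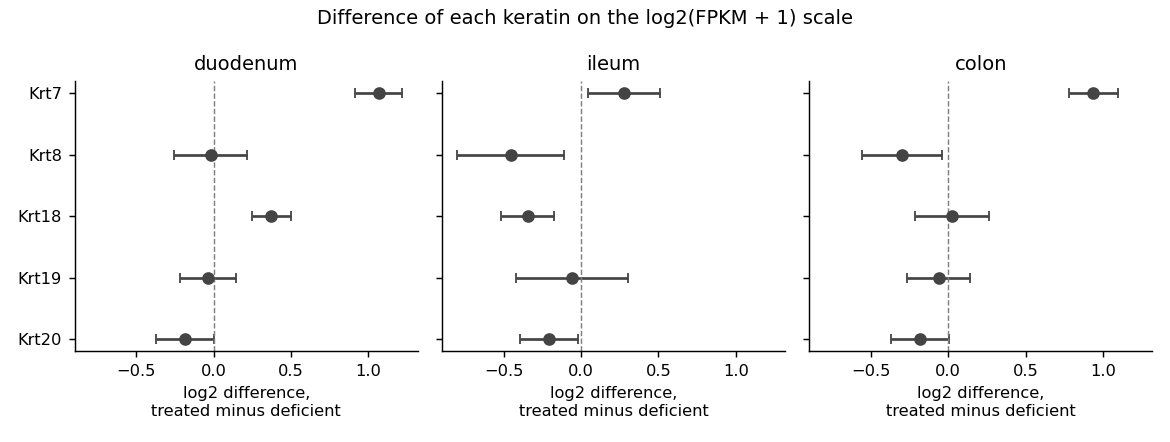
Log2 difference of treated minus deficient on the log2(FPKM + 1) scale for the 5 keratins, one panel per region, with the SE as bars. Krt7 lies at 1.07 in the duodenum, 0.28 in the ileum and 0.94 in the colon, and the other 4 genes lie between -0.46 and 0.37.

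Along the intestine the same 5 keratins were mixed in different proportions. The tables of the regions were normalised separately, so FPKM levels across them are given without a test. Over both groups Krt7 averaged 43.0 ± 18.4 FPKM in the duodenum (SD, n = 8), 103 ± 24.6 in the ileum (n = 7) and 164 ± 64.2 in the colon (n = 8). Krt8 averaged 1490.3, 2556 and 3092 FPKM in the same order, Krt18 127, 238 and 393, and Krt19 667, 1385 and 2259. Krt20 went the other way, at 1114 ± 179, 1103 ± 176 and 571 ± 112 FPKM. Krt8 was the most abundant member in every region and Krt7 the least. The second place was Krt20's in the duodenum and Krt19's in the ileum and colon, while the ileal means of Krt19 and Krt20 differed by less than the SD of Krt19.

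Shares of the summed FPKM of the 5 keratins show the makeup of each library without the scale of its table. Krt20 made up 32.5% ± 2.85 in the duodenum (SD, n = 8), 21.2% ± 4.67 in the ileum (n = 7) and 9.0% ± 1.83 in the colon (n = 8). Krt19 made up 19.5% ± 1.59, 25.6% ± 4.25 and 35.1% ± 2.02 in the same order. Krt20 was thus the larger of these type I keratins in the duodenum and Krt19 in the colon. Krt8 held 43.0% ± 3.19, 46.7% ± 4.74 and 47.3% ± 3.42, Krt18 3.78% ± 1.07, 4.52% ± 0.754 and 6.04% ± 0.637, and Krt7 1.29% ± 0.602, 2.01% ± 0.667 and 2.61% ± 1.09. The sum of type II over the sum of type I members was 0.801 ± 0.104 in the duodenum, 0.961 ± 0.159 in the ileum and 1.00 ± 0.103 in the colon.

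**Figure D4:**
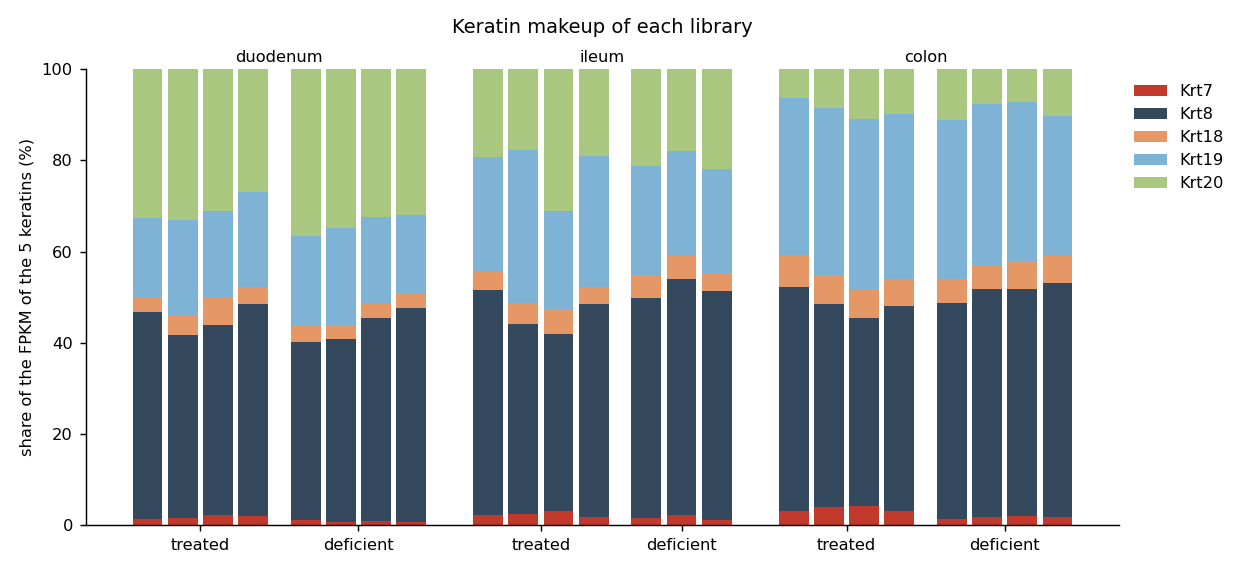
Share of each keratin in the summed FPKM of the 5 genes, 1 bar per library, treated left of deficient in each region. The Krt20 share runs from 26.8% to 36.6% in the duodenum and from 6.32% to 11.2% in the colon, and the Krt19 share from 17.3% to 21.2% and from 30.7% to 37.4%.

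The ratio of each keratin to Krt8 within a library does not depend on how a table was scaled, so it was compared between regions. Region labels were permuted within treatment groups in an exact two-sided permutation test, with p-values adjusted over 12 tests (4 ratios and 3 pairs of regions). The log2 ratio of Krt20 to Krt8 was 2.01 higher in the duodenum than in the colon, or 4.03-fold (exact permutation adjusted p = 0.00122, n = 8 and 8), the smallest adjusted value this design gave. The duodenum had 57.9 to 93.7 FPKM of Krt20 per 100 of Krt8 and the colon 12.9 to 26.5, with no overlap. It was 1.24 higher in the ileum than in the colon (exact permutation adjusted p = 0.00122, n = 7 and 8), with no overlap. Between duodenum and ileum the difference was 0.77 (exact permutation adjusted p = 0.0042), and the ranges overlapped through ileal 3xD5720 at 80.5 per 100, where the other 6 ileal libraries had 34.8 to 44.2.

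Krt19 relative to Krt8 ran the opposite way. Its log2 ratio was 0.71 lower in the duodenum than in the colon, 36.9 to 53.0 against 60.0 to 90.5 per 100 of Krt8, with no overlap (log2 difference -0.71, exact permutation adjusted p = 0.00122). The ileum was also below the colon (-0.48, exact permutation adjusted p = 0.00294). Duodenum and ileum differed by -0.24 (exact permutation adjusted p = 0.0862), which did not pass, although it did at -0.273 without duodenal Vehicle_1.

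Krt18 relative to Krt8 was lower in the duodenum than in the colon by 0.57 (log2 difference -0.57, exact permutation adjusted p = 0.00327). The ileum lay below the colon as well (-0.41, exact permutation adjusted p = 0.00796). The duodenum less the ileum was -0.16 (exact permutation adjusted p = 0.374). The ranges overlapped in each pair, with duodenal values of 6.50 to 14.9 per 100 of Krt8, ileal ones of 7.55 to 14.4 and colonic ones of 10.4 to 14.99.

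Krt7 relative to Krt8 was lower in the duodenum than in the colon (log2 difference -0.91, exact permutation adjusted p = 0.00122). The comparison is within treatment groups, and the duodenum was lower in both: 2.78 to 5.33 against 6.41 to 10.2 per 100 of Krt8 in treated mice, and 1.19 to 2.67 against 2.88 to 3.77 in deficient mice. In neither group did the duodenal and colonic ranges overlap. The duodenum less the ileum was -0.54 (exact permutation adjusted p = 0.062) and the ileum less the colon -0.36 (exact permutation adjusted p = 0.108), neither past the threshold in this unpaired test. With same-numbered columns as pairs, the duodenum less the ileum was -0.59 and did pass, but whether those columns share a mouse is not known. Duodenum less ileum passed without duodenal 3xD5720, duodenal minusD5718, ileal 3xD5734 or ileal Vehicle_3, at log2 differences of -0.673 to -0.614, and ileum less colon passed without ileal Vehicle_2, at -0.487. The duodenal libraries of the 4-digit scheme carried the stomach markers given above, whose part in these ratios was not tested.

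**Figure D5:**
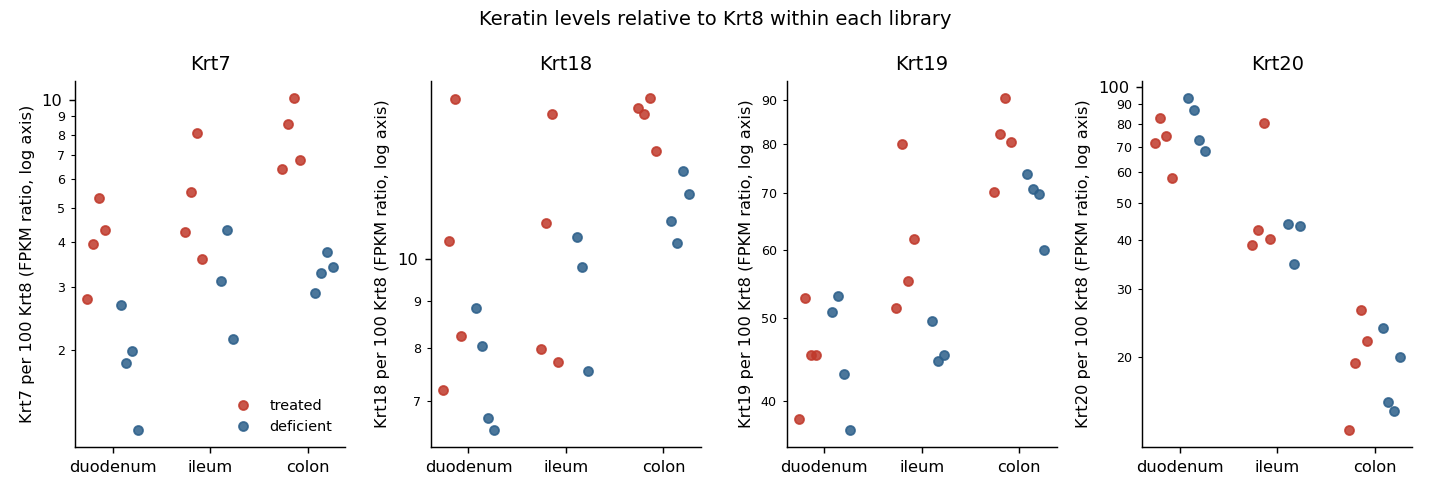
Krt7, Krt18, Krt19 and Krt20 per 100 FPKM of Krt8 in each library on a log axis, by region, with treated libraries left of deficient ones. Krt20 drops from the duodenum (57.9 to 93.7) to the colon (12.9 to 26.5), Krt19 climbs (36.9 to 53.0 against 60.0 to 90.5), and treated Krt7 points lie above the deficient ones in the duodenum and colon.

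The keratins did not vary as one block between libraries of the same group. After the mean of region and treatment group was taken out, Pearson's r over the 23 libraries was 0.88 for Krt8 with Krt19, 0.68 for Krt8 with Krt18 and 0.62 for Krt18 with Krt19. Krt7 had r = 0.58 with Krt18, 0.34 with Krt8, 0.34 with Krt19 and -0.28 with Krt20. These are descriptions over libraries that share depth and naming scheme. Among 11234 genes, those most like Krt7 in this respect were Npepl1 (0.84), Ifi27l1 (0.82), Gstp1 (0.81), Aspscr1 (0.80) and S100a16 (0.80). Gstp1 encodes a glutathione transferase. For Krt8 they were Crip1 (0.94), Dbndd2 (0.93), Taldo1 (0.93), Cdk10 (0.92) and Pfn1 (0.92), of which Pfn1 encodes the actin-binding profilin. For Krt18 they were Efcab4a (0.89), 9430023L20Rik (0.88), Myh14 (0.85), Enho (0.85) and Cuedc2 (0.85), and for Krt19 Dcxr (0.91), H2afv (0.90), Ell3 (0.90), Slc25a11 (0.89) and Iah1 (0.89). For Krt20 they were Clca6 (0.85), Edn3 (0.80), Plekha2 (0.79), Perp (0.79) and Sfn (0.75), of which Perp encodes a desmosome protein and Sfn the 14-3-3 sigma protein of epithelia.

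The other keratins were low beside the members of the same library. The table holds 45 besides the members, and the lowest share of the members in all keratin FPKM of a library was 98.98%, in the ileum. With a mean of at least 5 FPKM there was only Krt23, a type I keratin, in each region. It averaged 5.96 ± 1.43 FPKM in treated and 4.76 ± 0.604 in deficient duodenum (SD, n = 4 each). Treated ileum had 12.0 ± 7.85 (n = 4) and deficient ileum 10.3 ± 1.68 (n = 3), and treated colon 14.98 ± 9.82 and deficient colon 9.502 ± 4.92 (n = 4 each). Its log2 differences were 0.26 ± 0.16, 0.01 ± 0.43 and 0.54 ± 0.42 (SE). The highest Krt23 value of each region was that of 3xD5720, at 7.90 FPKM in the duodenum, 22.6 in the ileum and 29.3 in the colon. Of the other keratins 3, 5 and 5 passed the filter in the duodenum, ileum and colon, and 0 were called in each region, with 0 at an unadjusted p under 0.05 (limma). The 12 squamous markers, Krt5 and Krt14 among them, were low. They summed to 2.82 to 4.38 FPKM in treated and 2.89 to 3.41 in deficient duodenum. Their sums were 2.62 to 4.51 in treated and 3.81 to 5.54 in deficient ileum. In the colon they were 3.48 to 6.45 in treated and 3.87 to 4.91 in deficient libraries. That list leaves out Krt17, which ran from 0.823 FPKM in 3xD5720 to 8.49 in 3xD_1 in treated colon. In deficient colon Krt17 ran from 1.32 FPKM in Vehicle_1 to 6.21 in Vehicle_2. The 8 markers of mesothelium, the serosal lining, which also holds simple-epithelium keratins, summed to 3.62 to 4.67 FPKM in treated and 3.45 to 7.95 in deficient duodenum. They summed to 9.59 to 14.2 in treated and 9.04 to 26.3 in deficient ileum, and to 1.72 to 5.75 in treated and 2.01 to 8.73 in deficient colon, with Gpm6a at 0 in every library. The 4 urothelium markers summed to at most 5.01, 11.2 and 9.82 FPKM in treated and 4.63, 16.6 and 13.2 in deficient libraries of the 3 regions in the same order.

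Desmosomes anchor keratin filaments at the cell border, and plakins link them to other structures. Of 23 genes of desmosomes and keratin linkers, 18 passed the filter in each region and 0 were called by limma. The median log2 difference was -0.15 in the duodenum, -0.03 in the ileum and -0.19 in the colon, beside 0.01, 0.01 and -0.01 over all genes. It was positive for 4, 9 and 3 of the 18 genes. At an unadjusted p under 0.05 stood 2, 2 and 6 of the 18, against 9.4%, 5.84% and 5.85% of all genes. Plec, the large linker plectin, averaged 32.0 ± 2.66 FPKM in treated and 52.4 ± 9.52 in deficient colon (SD, n = 4 each), without overlap (log2 difference -0.68 ± 0.14 SE, adjusted p = 0.490 by limma). Eppk1, the keratin-binding epiplakin, averaged 5.45 ± 0.640 FPKM in treated and 8.93 ± 1.67 in deficient colon (-0.62 ± 0.15, adjusted p = 0.619 by limma). Evpl, the linker envoplakin, averaged 2.76 ± 0.608 FPKM in treated and 4.47 ± 0.340 in deficient duodenum (-0.55 ± 0.14, adjusted p = 0.483 by limma). Pkp1 of the same list went the other way, with overlap. It averaged 2.80 ± 0.577 FPKM in treated and 1.57 ± 1.07 in deficient duodenum (0.70 ± 0.36, adjusted p = 0.552 by limma). The integrin subunit Itgb4, of the basal keratin anchor, averaged 25.8 ± 1.95 FPKM in treated and 32.6 ± 5.04 in deficient colon (-0.32 ± 0.13, adjusted p = 0.846 by limma). In the ileum Plec averaged 39.1 ± 8.05 FPKM in treated libraries (n = 4) and 57.1 ± 14.3 in deficient ones (n = 3), with overlap.

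Of 15 other intermediate filament genes 9, 10 and 12 passed the filter in the duodenum, ileum and colon, 0 were called in each region, and 0, 1 and 2 had an unadjusted p under 0.05. The median log2 difference was 0.05, -0.17 and -0.05. Lmna, the A-type lamin of the nuclear envelope, averaged 111 ± 49.7 FPKM in treated and 159 ± 14.1 in deficient colon (SD, n = 4 each, log2 difference -0.60 ± 0.26 SE), and Lmnb2, a B-type lamin, 17.5 ± 1.36 in treated and 22.7 ± 2.36 in deficient colon (-0.35 ± 0.11). Vim, the filament of mesenchymal cells, averaged 29.8 ± 8.84 FPKM in treated and 27.4 ± 7.26 in deficient duodenum, and 118 ± 27.6 in treated and 109 ± 39.6 in deficient colon. Des, the filament of muscle, averaged 214 ± 149 FPKM in treated and 210.5 ± 93.0 in deficient colon.

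General epithelial genes differed little between the groups: 10 of 10 passed the filter in each region, 0 were called, and the median log2 difference was 0.03, -0.17 and -0.04. Enterocyte genes had medians of 0.15, 0.07 and 0.12 with 0 of 12, 0 of 12 and 0 of 11 tested called. Colonocyte genes had medians of 0.61, 0.52 and 0.33 with 0 of 7, 0 of 7 and 0 of 9 called. Their list holds Slc37a2, also listed as a vitamin D response gene, at 92.4 ± 45.9 FPKM in treated and 30.2 ± 17.7 in deficient duodenum. Duodenal colonocyte sums were 386 to 492 FPKM in treated and 287 to 384 in deficient libraries. By naming scheme they were 287 to 386 FPKM in serial and 384 to 492 in 4-digit libraries. Goblet cell genes had medians of 0.26, 0.10 and -0.10, and tuft cell genes lay between -0.25 and 0.01, with 0 called. Immune cell genes had medians of -0.82, -0.10 and -0.51 with 0 called, and summed to 10.3 to 39.9 FPKM in treated and 31.5 to 50.8 in deficient duodenum. Enteroendocrine genes had medians of 0.30, 0.04 and 0.18 with 0 called. Their duodenal sums were 435 to 511 FPKM in treated and 365 to 458 in deficient libraries, with overlap. By naming scheme they were 365 to 435 FPKM in serial and 442 to 511 in 4-digit libraries, without overlap. Crypt genes had medians of -0.01, -0.05 and -0.14 and smooth muscle genes of 0.19, 0.00 and -0.01, all with 0 called. Smooth muscle markers summed to 740 to 3603 FPKM in treated and 1261 to 2958 in deficient colon, the widest spread of the regions. Stomach and Brunner gland genes had a median of 3.36 in the duodenum, positive for 7 of the 7 tested. Their sums overlapped between treated and deficient duodenum. They separated by naming scheme, at 40.7 to 216 FPKM in serial and 6252 to 12369 in 4-digit libraries. Exocrine pancreas genes had medians of -0.71, -1.63 and -1.0, positive for 0, 0 and 1 of 10. The part of these cell types in the keratin values was not tested.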

How the data were processed

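Gene expression in whole-series tables of the duodenum, ileum and colon was deposited by the authors as FPKM, normalised per table. Per the labels' protocols, libraries came from poly(A) RNA with NEBNext Ultra II, and CLC Genomics Workbench did the mapping. The submitters' processing notes also name kallisto 0.45.0, DESeq 1.14.0, DESeq2 and mm9, without their roles. The sources used here do not give how reads shared with keratin pseudogenes were assigned or whether strand was used. The 8-library ileum table equals the duodenal one in 171528 of 171528 values, so its 8 columns were not used and the 7-library table was. Column names give the group but could not be tied to the labels' replicates, sex or age.

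The 5 genes and all gene lists were chosen with earlier results of these data known. Each region was fitted with limma 3.58.1 (R 4.3.3) on log2(FPKM + 1), for genes at 1 FPKM or more in at least 3 libraries, with a mean-variance trend and Benjamini-Hochberg adjustment at 0.05, two-sided. Response differences between regions came from 1 fit of all libraries. Log2 ratios to Krt8 (0.1 FPKM added) were compared by exact permutation. Whole reads were recovered from the spacing of the FPKM values for 82.7% of genes, with every library within 0.0001 of a whole number of reads. This gave 12241511 to 31094718 reads per library. The members held 716 to 201001 reads, a counting error of 0.22% to 3.74% that covers counting only. The methods were tested on simulated data. Named genes outside the members are taken from the 3 of each list with the lowest p in a region, other keratins with a mean of at least 5 FPKM, the 5 most correlated with each member, and single markers picked after their values were seen. Alternatives were other pseudocounts, filters, scalings, naming scheme as a covariate, subsets, leave-one-out, a block on column number and, added after seeing the data, voom on recovered reads. Promoters came from RefSeq (GRCm38.p6).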

Additional observations from a re-analysis of the deposited data

Results flagged for a closer look

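Of 25 groups of 4 libraries tested with Dixon's criterion (0.829 for 4 values), 3 held a library far from the others, and chance flags about 1 in 20. Krt7 in treated colon stood at 284 FPKM in 3xD_1, with a gap of 0.850 of the group's range to the next library, and the same library was the highest of the colon for Krt8, Krt18 and Krt19. In deficient duodenum, Vehicle_3 was the highest library for Krt18, at 132 FPKM with a gap of 0.868 of the range. Vehicle_3 was also the highest for Krt20, at 1386 FPKM with a gap of 0.866 of the range. These values were kept, and Krt7's log2 difference in the colon was 0.80 without 3xD_1.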

How the results depend on the processing

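Of 256 alternative values of the keratin ratios between regions, 223 kept direction and side of the threshold, 25 no longer passed, 7 newly passed and 1 reversed. Of the subsets in which values no longer passed, the serial and the 4-digit libraries alone were too small for a low p. The reason for the losses in treated or deficient libraries alone was not tested. Values are duodenum less ileum, duodenum less colon or ileum less colon, in that order where 3 are given. In treated libraries alone (adjusted p 0.0857 to 0.137), Krt7 duodenum less colon was -0.97, Krt18 -0.54 with -0.52 for ileum less colon, Krt19 -0.84 and -0.40, and Krt20 0.56, 1.87 and 1.31. In deficient libraries alone, Krt18 ileum less colon was -0.30 (adjusted p 0.0857). In serial libraries alone (adjusted p 0.075 to 0.12) the same values were -1.14 for Krt7, -0.86 and -0.60 for Krt18, -0.74 and -0.49 for Krt19, and 0.89, 2.34 and 1.45 for Krt20. In 4-digit libraries alone (adjusted p 0.2 to 0.36) they were -0.50 for Krt7, -0.35 and -0.40 for Krt18, -0.68 and -0.38 for Krt19, and 0.46, 1.82 and 1.21 for Krt20, and Krt18 duodenum less ileum reversed to 0.026; the cause was not tested.

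Leaving out 1 library at a time gave -0.67 to -0.42, -0.997 to -0.80 and -0.49 to -0.23 for Krt7, -0.26 to -0.07, -0.67 to -0.50 and -0.50 to -0.34 for Krt18, -0.28 to -0.17, -0.75 to -0.66 and -0.54 to -0.43 for Krt19, and 0.71 to 0.89, 1.91 to 2.08 and 1.12 to 1.32 for Krt20. Krt7 duodenum less ileum passed without duodenal 3xD5720 (-0.614), duodenal minusD5718 (-0.633), ileal 3xD5734 (-0.630) or ileal Vehicle_3 (-0.673), Krt19 duodenum less ileum without duodenal Vehicle_1 (-0.273), and Krt7 ileum less colon without ileal Vehicle_2 (-0.487). With same-numbered columns as a replicate block, Krt7 duodenum less ileum was -0.59 (adjusted p 0.0417). Same-numbered columns correlated over 0.1 in 6 of 7, 7 of 8 and 6 of 7 pairs, with a median r of 0.28, 0.21 and 0.29. The sources used here do not say whether such columns came from 1 mouse, so the main test treats the libraries as unpaired. No paired analysis was possible because the treated and deficient columns of a region share only the number 1, which the labels tie to no mouse.

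Counts of called genes by treatment were 1 in the duodenum with the mean filter, the naming covariate, pseudocount 0.1 or quantile normalisation, 0 with voom, and 4 without a filter, with pseudocount 0.5 or in the shared fit, 1 in the ileum without a filter, and in the colon 2 with the naming covariate and 5 in the shared fit. Krt7 was among the 4 of the duodenal shared fit and the 2 of the colon with the covariate, from which nothing is read since the contrast chose it. Without 1 library the counts ran from 1 to 4, 0 to 0 and 0 to 3. Response differences had 1 call for duodenum less ileum and 1 for duodenum less colon with pseudocount 0.1, 1 for ileum less colon with the replicate block, and 0 to 1, 0 to 1 and 0 to 2 without 1 library. Of 285 alternative member differences 277 moved by less than the spread between replicates. Depth did not limit the members, whose spread lies between libraries.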

Other observations

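Library 3xD5720 stood apart in its keratin makeup in all 3 regions. Its Krt8 was the lowest of each region, at 1045, 1143 and 1861 FPKM, as was its Krt19, at 472, 631 and 1685. Its Krt18 per 100 FPKM of Krt8 was the highest of each region, at 14.9 in the duodenum, 14.4 in the ileum and 14.99 in the colon. The sources used here do not say whether the 3 libraries of this name came from 1 mouse. In the colon, Krt18 per 100 FPKM of Krt8 was 13.1 to 14.99 in treated and 10.4 to 12.5 in deficient libraries, without overlap, while Krt18 itself overlapped. This ratio was picked after its values were seen, on the contrast that chose the members. How often ratios of other genes separate the groups was not counted, so nothing is read from it.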
